A study of Solanum lycopersicum with 14 samples.

Results

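A rule picked out 63 of the 34725 tomato genes in the deposited tables. They were switched on in ripening red fruit and were still low in fruit of a yellow mutant at the same age. In the oldest mutant fruit they had at least 0.5 of the level of that younger red fruit. The ratio ran from 0.517 to 13.2, with a median of 0.734. These 63 are called the regained genes here, a name that stands for this rule and not for an earlier high level in the mutant. RNA was sequenced from the pericarp, which is the flesh of the fruit, of n3122, labelled as a yellow-fruited mutant in the M82 cultivar background, and of M82, the red-fruited wild type. The n3122 fruit were taken at 35, 47, 54 and 60 DPA (the label for fruit age, in this field days post anthesis) and the M82 fruit at 35, 47 and 54 DPA, all from greenhouse plants. The 7 groups had 2 libraries each. The labels name no mutated gene, and whether both libraries of a group are of different plants is not stated, so the authors' p-values may measure only technical spread.

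The members were chosen by their measured levels, in FPKM, a unit that corrects the reads of a gene for its length and for the size of the library. The deposited files give the authors' 1 value per group, so no level carries an error and no sequencing depth is known. A member had at least 20 FPKM in M82 at 47 DPA, at least 4 times the M82 level at 35 DPA, at most 0.25 of the M82 level in n3122 at 47 DPA, and at least 0.5 of the M82 47 DPA level in n3122 at 60 DPA, with 1 FPKM added to every value. The first pair of conditions was met by 522 genes, called ripening-induced here. Of these, 310 were low in n3122 at 47 DPA, and the 63 regained genes were 20.3% of those 310. The other 247 stayed under 0.5 at 60 DPA. Just inside that limit lay ratios of 0.517, 0.518 and 0.525, and just outside it 0.495, 0.485 and 0.480. Since the rule used n3122 at 47 and 60 DPA and M82 at 35 and 47 DPA, the levels there are a description. Both groups at 54 DPA, and n3122 at 35 DPA, played no part in it.

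Tomato is a climacteric fruit: at the onset of ripening ethylene synthesis rises, and ethylene together with regulators such as the MADS-box factor RIN and the NAC factor NOR turns on genes of softening, colour, sugar and aroma. DNA demethylation in the fruit, carried out mainly by the demethylase DML2, accompanies this switch. EIN2 is the protein through which the ethylene signal passes on its way to the nucleus. In these tables EIN2 had 1.95 FPKM in n3122 at 60 DPA, against 33.6 in M82 at 47 DPA in the same table, and this difference was called there (q = 0.000943 in the authors' deposited table). It was 2.91 FPKM in n3122 and 40.8 in M82 at 54 DPA.

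All of the fruit pericarp markers TAGL1, FUL1, FUL2, PG2A, EXP1 and E8 were at 1 FPKM or more in n3122 at 47, 54 and 60 DPA and in M82 at all 3 ages, and at 35 DPA in n3122 5 of the 6 were. PG2A, EXP1 and E8 are themselves ripening-induced and were low in n3122 at 47 DPA, so they do not measure the share of pericarp. The summed level of the 6 was 3029 FPKM in n3122 at 60 DPA and 11049 FPKM in M82 at 47 DPA. Of 6 epidermis markers, the summed level was 204 FPKM in n3122 at 60 DPA and 129 FPKM in M82 at 47 DPA, and at 54 DPA it was 177 FPKM in n3122 and 149.8 FPKM in M82. Most of each sum was CER6, with 136 FPKM in n3122 at 60 DPA and 89.7 FPKM in M82 at 47 DPA, so the sums do not measure epidermal content. In n3122, 5 of the 6 were at 1 FPKM or more at 60 DPA and all 6 at 54 DPA, while in M82 3 of the 6 were at 47 and at 54 DPA, and SHN3 was listed at 0 in M82 at 47 DPA. The part of tissue make-up in the results below was not tested, and in whole pericarp fewer cells of a type and less RNA per cell cannot be told apart. M82 at 47 DPA stands in both the 47 DPA table and the 60 DPA table, with values in the second at 0.960 of those in the first, so the tables were scaled separately. Levels set side by side across ages come from different tables, and no test between ages was made beyond the authors' own comparison of n3122 at 60 with M82 at 47 DPA. Where n3122 at 60 DPA is set directly against M82 at 47 DPA, other than in the marker sums and for CER6, both levels come from the 60 DPA table. Ratios have 1 FPKM added to each level.

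The rule itself made the regained genes rise in n3122 from 47 to 60 DPA, so that rise is a description. Only the level at 54 DPA was free within it. Their median level was 6.70, 8.18, 23.4 and 110 FPKM in n3122 at 35, 47, 54 and 60 DPA, and 4.81, 93.0 and 122 FPKM in M82 at 35, 47 and 54 DPA. Every one of the 63 was higher in n3122 at 60 than at 54 DPA, by a median ratio of 2.91, and 51 of them were at least 2 times higher. From 47 to 54 DPA 61 of the 63 were higher in n3122, by a median ratio of 1.70, and 25 were at least 2 times higher. Most of the 247 genes not regained rose in n3122 as well, 202 of them from 47 to 54 DPA and 173 from 54 to 60 DPA. From 35 to 47 DPA the median ratio in n3122, whose 47 DPA level the rule capped, was 1.44. The same step in M82, which the rule required to be large, had a median of 10.1. At 60 DPA n3122 stood above the M82 47 DPA level for 16 members and below it for 47, with a median ratio of 0.734. Set against M82 at 54 DPA, n3122 at 60 DPA was higher for 23 of the 63. The highest of the 7 groups was M82 at 47 DPA for 29 members, M82 at 54 DPA for 24 and n3122 at 60 DPA for 10.

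**Figure D1:**
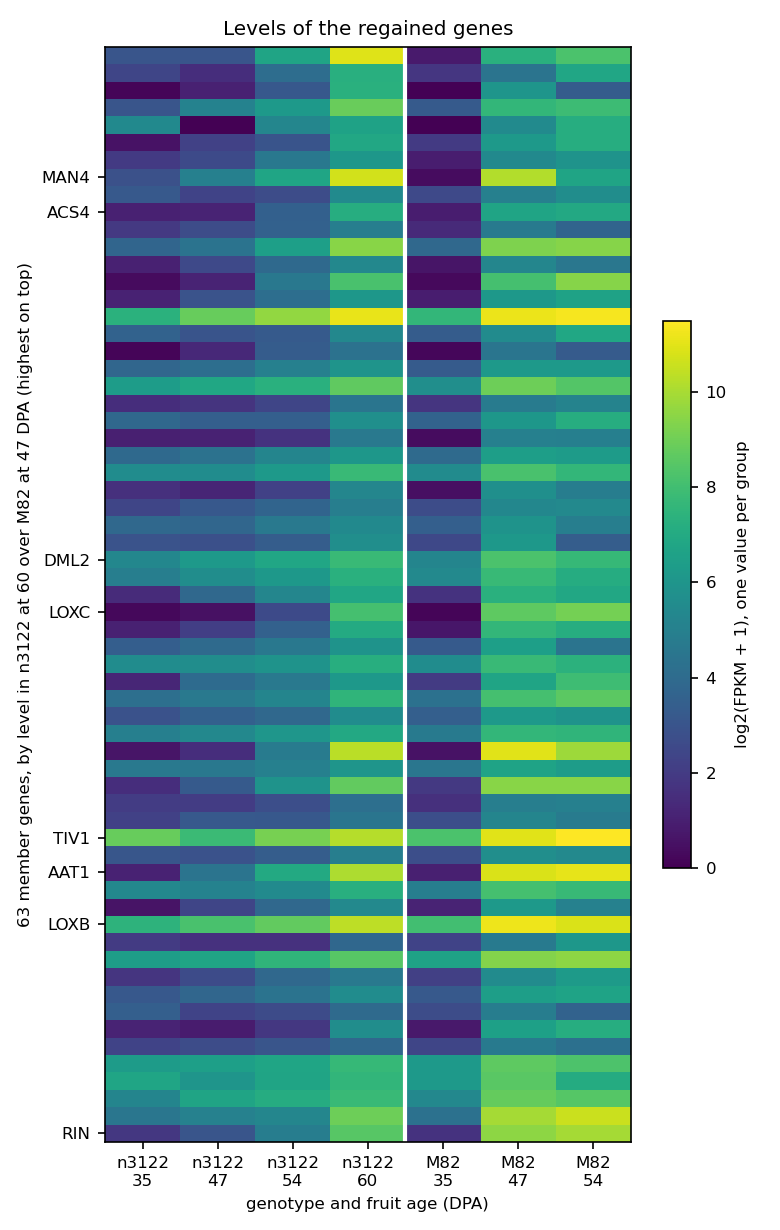
Heat map of the 63 regained genes (rows, ordered by n3122 at 60 DPA over M82 at 47 DPA) in the 7 groups (columns, n3122 to the left), coloured by log2(FPKM + 1), 1 value per group. The median is 110 FPKM in the n3122 60 DPA column, 93.0 FPKM in the M82 47 DPA column, and 122 FPKM in the M82 54 DPA column, which the rule did not use. The rule set n3122 at 60 DPA against the M82 47 DPA values of the 60 DPA table, with a median of 89.4 FPKM.

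Among the regained genes, 8 could be given a name: RIN, DML2, ACS4, MAN4, TIV1, AAT1, LOXC and LOXB. The files name genes only by identifier, and the other 55 are given here by identifier or as counts. The 8 fall into regulators of ripening, ethylene synthesis, the cell wall, sugar and aroma.

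RIN (Solyc05g012020, chromosome 5) encodes the MADS-box factor that tomato fruit need for full ripening. It had 2.66, 7.23, 28.3 and 364 FPKM in n3122 at 35, 47, 54 and 60 DPA, against 2.26, 733 and 977 FPKM in M82 at 35, 47 and 54 DPA. The n3122 level was thus higher at each later age, and the steepest step was the last. At 54 DPA RIN was called lower in n3122, with a log2 fold change of -5.06 on the log2(FPKM + 1) scale that is used throughout (q = 0.000377 in the authors' deposited table). RIN was the member nearest to the limit of 0.5 at 60 DPA, at a ratio of 0.517, and at 60 DPA it was still called lower than in M82 at 47 DPA (364 against 704 FPKM in the 60 DPA table, q = 0.0464 in the authors' deposited table).

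DML2 (Solyc10g083630, chromosome 10) encodes a DNA demethylase that removes methyl marks from ripening genes in the fruit. Its levels were 39.3, 71.4, 109 and 223 FPKM in n3122 at 35, 47, 54 and 60 DPA, and 36.4, 306 and 209 FPKM in M82 at 35, 47 and 54 DPA. Of the named members it differed least between n3122 and M82 at 54 DPA apart from MAN4, with a log2 fold change of -0.93 (q = 0.00243 in the authors' deposited table). At 60 DPA n3122 had 223 FPKM, close to the 209 FPKM of M82 at 54 DPA.

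ACS4 (Solyc05g050010, chromosome 5) encodes an ACC synthase, which makes the precursor of ethylene during ripening. It had 1.07, 1.24, 10.5 and 144 FPKM in n3122 at 35, 47, 54 and 60 DPA, against 0.920, 105 and 122 FPKM in M82 at 35, 47 and 54 DPA. Its level in n3122 at 60 DPA lay above both ripening M82 values, and the difference from M82 at 47 DPA was not called (log2 fold change 0.51, q = 0.268 in the authors' deposited table). At 54 DPA it was called lower in n3122 (log2 fold change -3.42, q = 0.000377 in the authors' deposited table). ACS2, the other ACC synthase gene of the ripening burst, was not regained: it had 97.7 FPKM in n3122 at 60 DPA and 354 FPKM in M82 at 47 DPA, a ratio of 0.278.

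MAN4 (Solyc01g008710, chromosome 1), an endo-mannanase gene of the cell wall, followed another course. It had 6.19, 31.5, 106 and 1694 FPKM in n3122 at 35, 47, 54 and 60 DPA, against 0.308, 1135 and 105 FPKM in M82 at 35, 47 and 54 DPA. In M82 it thus stood high at 47 DPA alone, and the genotypes crossed at 54 DPA, where n3122 and M82 differed by a log2 fold change of 0.01 (q = 0.989 in the authors' deposited table). At 35 DPA MAN4 was called higher in n3122 (log2 fold change 2.46, q = 0.0177 in the authors' deposited table).

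TIV1 (Solyc03g083910, chromosome 3) encodes the vacuolar invertase, which splits sucrose into hexoses in ripening fruit. It had 448, 226, 567 and 1188 FPKM in n3122 at 35, 47, 54 and 60 DPA, against 303, 2028 and 2886 FPKM in M82 at 35, 47 and 54 DPA. It was the one named member whose n3122 level was lower at 47 than at 35 DPA. At 54 DPA it was called lower in n3122 (log2 fold change -2.35, q = 0.000377 in the authors' deposited table).

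The remaining 3 named members act in aroma. AAT1 (Solyc08g005770, chromosome 8) encodes an alcohol acyltransferase, which makes volatile esters, and had 1.15, 20.5, 124.8 and 1077 FPKM in n3122 at 35, 47, 54 and 60 DPA. In M82 it had 1.04, 1866 and 2117 FPKM at 35, 47 and 54 DPA. LOXC (Solyc01g006540, chromosome 1), the lipoxygenase gene of fatty acid derived volatiles, had 0.205, 0.428, 4.92 and 275 FPKM in n3122 at 35, 47, 54 and 60 DPA, against 0.112, 393 and 543 FPKM in M82 at 35, 47 and 54 DPA. LOXC was thus almost silent in n3122 up to 47 DPA and had the lowest fold change of all 63 members at 54 DPA (log2 fold change -6.52, q = 0.000377 in the authors' deposited table). LOXB (Solyc01g099190, chromosome 1), a lipoxygenase gene expressed in fruit, was well expressed before ripening and had 172, 289, 423 and 1322 FPKM in n3122 at 35, 47, 54 and 60 DPA. In M82 it had 258, 2367 and 1818 FPKM at 35, 47 and 54 DPA. AAT1 and LOXB were also called lower at 54 DPA (log2 fold changes -4.07 and -2.10, q = 0.000377 for each in the authors' deposited table). Lipoxygenase genes form a family with close copies, and the sources used here do not say how reads shared between copies were assigned.

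**Figure D2:**
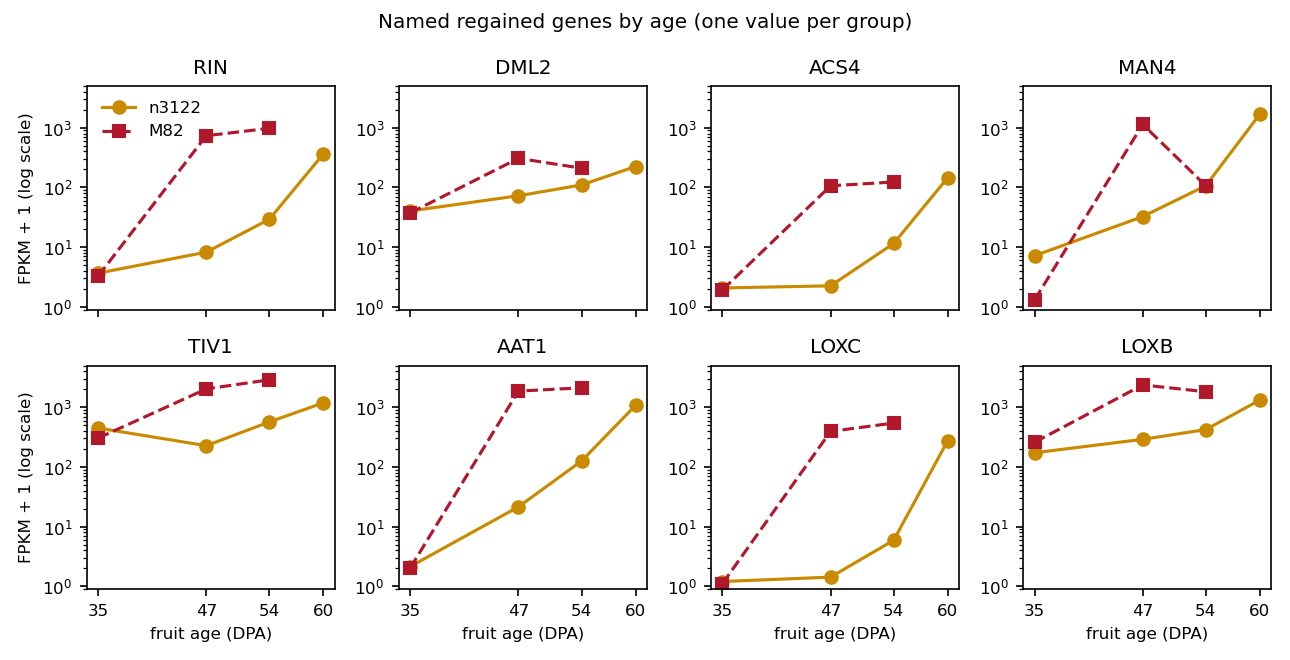
Levels of the 8 named regained genes (FPKM + 1 on a log axis, 1 value per group) against fruit age in DPA, n3122 as circles with a solid line and M82 as squares with a dashed line. In each panel n3122 was highest at 60 DPA, from 144 FPKM for ACS4 to 1694 FPKM for MAN4, and M82 had already risen by 47 DPA.

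The comparison at 54 DPA set n3122 beside M82 at an age outside the rule. The rule chose genes that were low in n3122 at 47 DPA, so lower levels at 54 DPA may in part carry over from that choice. The counts are thus a description, and the share called lower was 89.8% among the genes low at 47 DPA and not regained. Most regained genes were lower in n3122: with a q-value of at most 0.05 as the threshold for a call, 53 of the 63 members, all of them tested, were called lower and 0 higher (84.1% lower, against 11.5% called lower and 18.1% called higher among all 18796 genes tested in the authors' deposited table). At an unadjusted p-value under 0.05 the authors' deposited table had 53 members lower and 0 higher, beside 16.1% and 22.6% of all genes tested lower and higher. The median log2 fold change of the 63 members was -2.02, with quartiles of -3.29 and -1.20, beside a median of -0.02 over all genes tested. Of the 53 called, 46 had the smallest q-value of that table, 0.000377. Levels ran from 2.14 to 782 FPKM in n3122, median 23.4, and from 8.71 to 2886 FPKM in M82, median 122.

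By the share called lower and by the median, the regained genes stood between both kinds of ripening-induced genes that were most like them. Of the 247 genes that were low at 47 DPA and not regained, 245 were tested at 54 DPA, of which 220 were called lower (89.8%) and 1 higher in the authors' deposited table, with a median log2 fold change of -2.69. Of 92 ripening-induced genes that were on time, with n3122 at 0.5 or more of M82 at 47 DPA, 89 were tested, of which 44 were called lower (49.4%) and 8 higher, with a median of -0.62. The same order was present at 47 DPA, where the rule set it in part. The medians there were -2.86 for the regained genes, -3.36 for those not regained and -0.52 for those on time. The differences between these gene groups were not tested, since genes are not replicates.

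**Figure D3:**
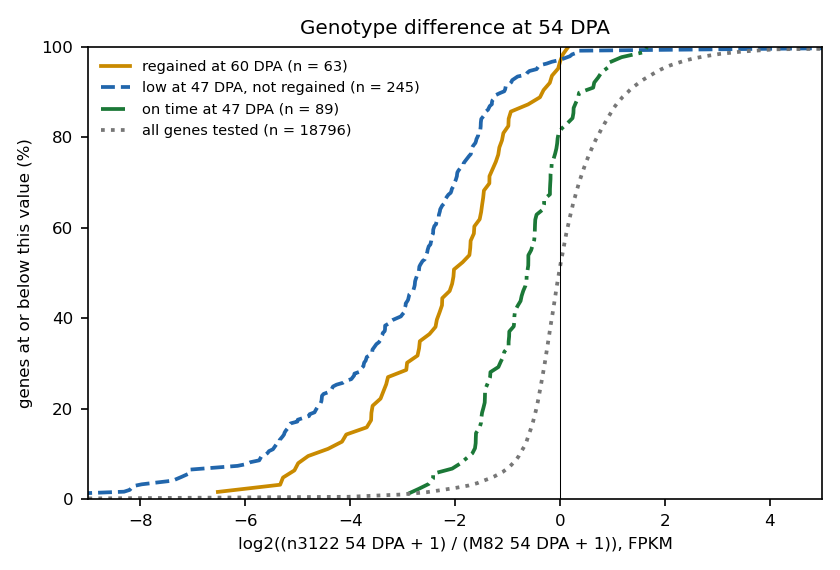
Cumulative share of genes (percent, vertical axis) by the log2 fold change of n3122 over M82 at 54 DPA (horizontal axis, 1 FPKM added), for the regained genes, the genes not regained, the genes on time and all genes tested. The median of the regained genes, -2.02, lies between those of the genes not regained (-2.69) and on time (-0.62), and the curves of the regained and not regained genes cross near their upper ends.

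The 10 regained genes that were not called at 54 DPA were mostly those whose M82 level had already dropped. In 7 of the 10 the M82 level at 54 DPA was 0.5 or less of that at 47 DPA, and over the 10 the median of this ratio was 0.398. Over the 53 members called lower the median ratio was 1.06, and 3 of them had dropped as far in M82. MAN4 had dropped most, to a ratio of 0.0937. Solyc06g083470, named after its values were seen, had 0.113, 1.08, 8.01 and 157 FPKM in n3122 at 35, 47, 54 and 60 DPA, against 0.0453, 62.3 and 9.30 FPKM in M82 at 35, 47 and 54 DPA. Its log2 fold change at 54 DPA was -0.19 (q = 0.662 in the authors' deposited table). Both ratios hold the M82 54 DPA level, on opposite sides, so a high one goes with a low other in part by construction. No member among the 10 had a p-value under 0.05 in the authors' deposited table. A missed call does not show that the genotypes were alike.

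**Figure D4:**
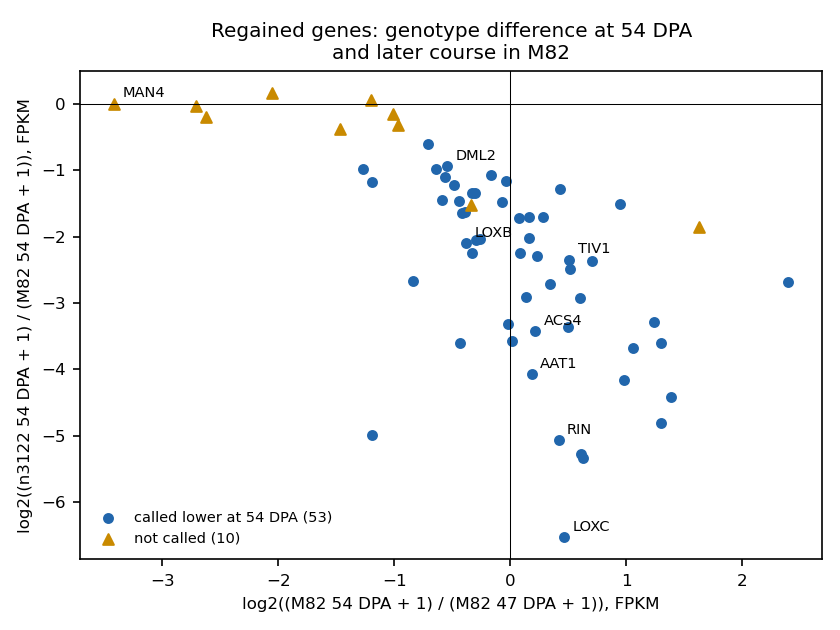
Each point is 1 of the 63 regained genes, by the log2 ratio of M82 at 54 over 47 DPA (horizontal, 1 FPKM added) and the log2 fold change of n3122 over M82 at 54 DPA (vertical); circles are the 53 members called lower and triangles the 10 not called. Triangles lie mostly at the left, where M82 had dropped, with MAN4 at a ratio of 0.0937, and LOXC is lowest at -6.52.

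Before ripening, at 35 DPA, most regained genes were not called different. Of the 58 members tested there, 4 were called higher (6.90%, against 1.91% of all 18541 genes tested) and 0 lower (against 1.33%) in the authors' deposited table. The median log2 fold change of these 58 was 0.14, beside -0.01 over all genes tested. At an unadjusted p-value under 0.05 it had 5 of the 58 lower and 11 higher, beside 4.41% and 6.35% of all genes tested lower and higher. Among the genes on time, 5.81% were called higher and 18.6% lower at 35 DPA, and among those not regained 2.53% and 6.57%. A raised share called higher was thus not particular to the regained genes. This contrast shares the M82 35 DPA level with the rule, so its counts are a description. Beside MAN4, the members called higher at 35 DPA were Solyc00g060810, Solyc11g044910 and Solyc12g088460. Their levels, in that order, were 7.15, 2.89 and 10.2 FPKM in n3122, against 0.791, 0.922 and 5.32 FPKM in M82. They were named after their values were seen. At a q-value of 0.01 none of the 4 was called.

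The contrasts that the rule used are given for completeness. At 47 DPA 59 of 62 tested members were called lower (95.2%, beside 9.81% of all genes tested, in the authors' deposited table). At 60 DPA against M82 at 47 DPA, 7 of 63 were called lower (11.1%, beside 7.07%), 5 higher (7.94%, beside 7.93%) and 51 in neither direction in the authors' deposited table. Nothing is read from these counts, since the limits of 0.25 and 0.5 set them.

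Some members had a higher level at 60 DPA than M82 at 47 DPA. In 5 of the 63 n3122 at 60 DPA had at least 2 times the M82 47 DPA level. The largest was Solyc00g060810, placed on no chromosome by its identifier, with 7.15, 7.07, 105 and 1980.4 FPKM in n3122 at 35, 47, 54 and 60 DPA, against 0.791, 154 and 299 FPKM in M82 at 35, 47 and 54 DPA. Its n3122 level at 60 DPA was thus far above every other group. Solyc08g021840 came next, with 4.28, 1.81, 16.3 and 153 FPKM in n3122 at 35, 47, 54 and 60 DPA, against 2.58, 20.2 and 110 FPKM in M82 at 35, 47 and 54 DPA. Here M82 was also still climbing, and n3122 at 60 DPA was nearer to M82 at 54 than at 47 DPA. Its M82 level at 47 DPA lay just above the limit of 20 FPKM, which makes the ratio large. Its difference at 47 DPA was not called (q = 0.201 in the authors' deposited table). The others were Solyc06g083470, Solyc05g024260 (470.01 FPKM in n3122 at 60 DPA, 184 in M82 at 47 DPA) and Solyc01g049910. Solyc01g049910 is uncertain: it was listed at 0 in n3122 at 47 DPA and in M82 at 35 DPA, which may be estimates that failed, but at 42.5 FPKM in n3122 at 35 DPA, it was not tested at 47 DPA, and at 60 DPA it was not called (q = 0.709 in the authors' deposited table). These last 3 were named after their values were seen.

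At the other end were members that were still far down at 54 DPA. Among those without a name the lowest fold changes at 54 DPA were those of Solyc11g011210 and Solyc04g080250. Solyc11g011210 had 21.5, 32.0, 37.2 and 496 FPKM in n3122 at 35, 47, 54 and 60 DPA, against 18.4, 998 and 1539.5 FPKM in M82 at 35, 47 and 54 DPA (log2 fold change at 54 DPA -5.33, q = 0.000377 in the authors' deposited table). Solyc04g080250 had 1.23, 0.833, 2.68 and 48.6 FPKM in n3122 at 35, 47, 54 and 60 DPA, against 0.750, 93.0 and 142 FPKM in M82 at 35, 47 and 54 DPA. In both the n3122 level was far under both ripening M82 levels at 47 and 54 DPA, and both were still called lower at 60 DPA than in M82 at 47 DPA (q = 0.0272 and 0.0300 in the authors' deposited table).

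By identifier, the regained genes lay on 11 of the 12 chromosomes. Of all ripening-induced genes 12.1% were regained. Chromosome 3 held the most, 13 of its 76 ripening-induced genes, chromosome 12 held 6 of 31, chromosome 7 held 6 of 36 and chromosome 9 held 0 of 44. There were 3 pairs that lay side by side or with 1 gene between them. In the pair Solyc08g066690 and Solyc08g066700 the levels in n3122 at 60 DPA were 428 and 690.4 FPKM, against 668 and 596 FPKM in M82 at 47 DPA. The pair Solyc02g069420 and Solyc02g069430 had 40.6 and 52.3 FPKM in n3122 at 60 DPA, against 44.0 and 64.4 FPKM in M82 at 47 DPA. In the pair Solyc06g083470 and Solyc06g083490, the second had 1269 FPKM in n3122 at 60 DPA, against 1950.4 FPKM in M82 at 47 DPA, and the highest induction of all members in M82 from 35 to 47 DPA (ratio 1386). Whether the genes of a pair share sequence is not known from the sources used here. These groupings were noticed after the values were seen.

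The lists of ripening pathways place the named members among their neighbours in function. Of 145 listed genes whose names could be checked, 38 were ripening-induced and 29 were low in n3122 at 47 DPA, and of these 29 the regained genes made up 8 and the genes not regained 21. Among all 310 genes that were low at 47 DPA the share regained was 20.3%, so 8 of 29 is read against that, and no list was tested. The lists' calls at 54 DPA stand beside 11.5% of all tested genes called lower and 18.1% called higher in the authors' deposited table.

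In the aroma list all 3 ripening-induced genes that were low at 47 DPA, AAT1, LOXC and LOXB, were regained, and in the list of sugars, starch and acids the 1 such gene, TIV1, was. HPL, the hydroperoxide lyase gene of the aroma list, was also low in n3122 at 47 DPA (ratio 0.242) and had a ratio of 0.206 at 60 DPA, but with an induction of 3.12 in M82 it was not among the ripening-induced genes. At 54 DPA the aroma list had 4 genes lower and 5 higher of 12 tested in the authors' deposited table, with a median log2 fold change of 0.59. The list of sugars, starch and acids had 2 lower and 5 higher of 14 tested.

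Of 6 ripening-induced regulators low at 47 DPA, RIN and DML2 were regained, and NOR, CNR, AP2A and ERF6 were not. NOR came close, with 281 FPKM in n3122 at 60 DPA and 604 FPKM in M82 at 47 DPA, a ratio of 0.466 that lies just outside the limit. CNR had 56.8 FPKM in n3122 at 60 DPA, against 251 FPKM in M82 at 47 DPA. At 54 DPA 9 of 17 tested genes of this list were called lower and 3 higher in the authors' deposited table.

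Of 6 ripening-induced cell wall genes low at 47 DPA, MAN4 was regained, and PL, PG2A, EXP1, CEL2 and TBG4 were not. PL, the pectate lyase of softening, had 36.9 FPKM in n3122 at 60 DPA, against 1760.4 FPKM in M82 at 47 DPA, a ratio of 0.0215. PG2A, the fruit polygalacturonase, had 794 FPKM in n3122 at 60 DPA, against 3458 FPKM in M82 at 47 DPA. EXP1, the ripening expansin, had 385 FPKM in n3122 at 60 DPA, against 825 FPKM in M82 at 47 DPA, and at 0.468 it too lay just outside the limit. The list had 7 genes lower and 2 higher of 10 tested at 54 DPA in the authors' deposited table.

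Of 3 ripening-induced ethylene synthesis genes low at 47 DPA, ACS4 alone was regained, while ACS2 and ACO3 were not. In this list 3 of 11 tested genes were lower and 6 higher at 54 DPA in the authors' deposited table. None of the 3 such genes of ethylene perception and signalling, NR, ETR4 and EBF1, was regained, with ratios from 0.144 to 0.175, and 8 of 15 tested genes of that list were lower and 1 higher at 54 DPA in the authors' deposited table. Both ethylene-responsive genes stayed low as well. E4 had 48.2 FPKM in n3122 at 60 DPA, against 4486 FPKM in M82 at 47 DPA, and E8 had 1112 FPKM in n3122 at 60 DPA, against 5048 FPKM in M82 at 47 DPA.

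The ripening-induced pigment genes low at 47 DPA were not among the regained genes. PSY1, the phytoene synthase that opens carotenoid synthesis in fruit, had 644 FPKM in n3122 at 60 DPA, against 4102 FPKM in M82 at 47 DPA, a ratio of 0.157. Z-ISO, an isomerase on the way to lycopene, reached a ratio of 0.0383, and GGPS2, which supplies the carotenoid precursor, 0.102. The chalcone synthase genes CHS1 and CHS2 of flavonoid synthesis reached 0.0876 and 0.435. At 54 DPA 4 of 6 tested genes of carotenoid synthesis to lycopene were lower, 2 of 7 of the precursor pathway were lower and 3 higher, and 2 of 5 flavonoid genes were lower in the authors' deposited table.

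**Figure D5:**
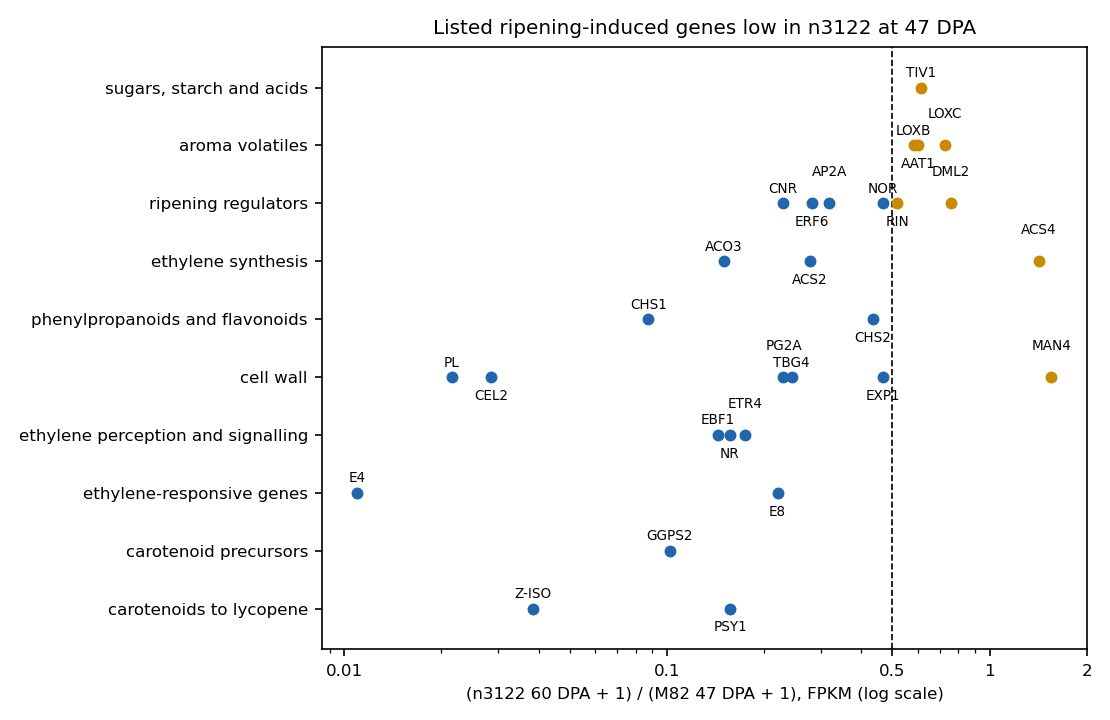
The 29 listed ripening-induced genes that were low in n3122 at 47 DPA, grouped by list (rows), against the ratio of n3122 at 60 DPA to M82 at 47 DPA (FPKM with 1 added, log axis); the dashed line is the limit of 0.5. The 8 regained genes lie to its right, up to MAN4 at 1.55, and NOR (0.466) and EXP1 (0.468) lie just to its left.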

How the data were processed

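The submitters' processing notes name Cufflinks, CASAVA and TopHat2 (version 2.0). Which genome build and gene models served is not given in the sources used here. Deposited were 4 tables of 34725 genes. Per the file headers, each gives the authors' FPKM value per group, a test statistic (a score), a p-value and a q-value. Genes with a statistic of 0 and a p-value of 1 were taken as not tested. Identifiers were joined without version, which 51 of them carried in 1 table. Fold changes were computed as log2((n3122 + 1) / (M82 + 1)) from the FPKM values of 1 table, and the 1 FPKM added makes changes of weakly expressed genes look smaller. Group totals ran from 1268273 to 1456313 FPKM. No values per replicate were used, so no test, SD or interval of the levels could be given.

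The members and lists were chosen with earlier results of these data known. Gene symbols were paired with identifiers from general knowledge. Of 213 pairs, 145 had their name in the reference table (assembly SLM_r2.1) on the same chromosome within 5% of the same relative place, 55 had a name that it lacks and 13 lay elsewhere. The last 68 pairs were not used, except the epidermis markers MIXTA and CYP86A69, which the marker list holds with unchecked names. The check cannot tell close neighbours apart. In that table ACO3 is the symbol of a different gene, and the one so named here was found by a synonym. Named were all members among the checked pairs, and of the others the 2 with the largest ratio at 60 DPA and the 2 with the lowest fold change at 54 DPA; further identifiers are said to be chosen later. No sequences are shown, and no sequence tables were used. The rule was tested on simulated data. The alternatives changed the limits and pseudocounts of the rule, the scaling between tables, the q threshold and a minimum fold change. Python 3.11.15, pandas 2.3.3 and numpy 2.4.6 were used.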

Additional observations from a re-analysis of the deposited data

How the results depend on the processing

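No paired analysis was possible because the tables give 1 value per group, and for the same reason no library could be left out. Of 42 alternative values, 34 lay within 1.5 times of the value reported, for a median as the difference of log2 fold changes turned back into a fold. Among the 34 were 2 counts of members called lower at 35 DPA, which were 0 as in the value reported. No median changed its sign, and counts have no sign to change. The limits of the rule set the number of members. With a regain ratio of at least 0.4 there were 99 members, 86 of them called lower at 54 DPA, and with at least 0.67 there were 39 members, 31 called lower. With the 0.25 limit at 47 DPA tightened by a factor of 2 there were 28 members, 23 called lower, with a median log2 fold change at 54 DPA of -3.11. At a q-value of 0.01, 0 of the 4 members higher at 35 DPA were still called. With the tables scaled to the 47 DPA table by their median ratio there were 65 members, among them all 63. Without the 1 member listed at 0 in some group, or without the 4 not called at 47 DPA, both chosen after seeing the data, 53 and 51 members were called lower at 54 DPA. The unknown depth limits what can be said of members with low levels.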
